A study of Mus musculus with 2 samples.

Results

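The transcription factor gene Mecom and 9 further genes of early blood progenitors, Angpt1, Egfl7, Cd34, Ly6a, Procr, Mllt3, Hlf, Sox4 and Cd48, were followed in mouse haematopoietic stem and progenitor cells that carried either of 2 forms of PML/RARa. The genes were taken by name, and 10 of 10 had a row in both deposited tables, out of 34745 gene models. They were chosen by their levels in these same libraries (the counts in 2KR against WT), so levels and ratios are given as a description, without a test. PML/RARa joins PML to a retinoic acid receptor and is the oncogene of acute promyelocytic leukaemia. Marrow of C57BL/6 mice given 5-fluorouracil was enriched for progenitors, exposed to lentivirus for the wild-type fusion (WT) or the form labelled 2KR, and grown with SCF, IL-3 and IL-6. Both groups were cultured for 24 h after infection before the medium was renewed, and the time to the sort is not stated. Transduced cells were sorted before RNA extraction. The series title speaks of 2 lysines in the fusion, and the labels say no more of what 2KR changes. A virus labelled pMSCV is also named and was not analysed here. Each form had 1 library, and the sources used here do not say whether animals were pooled.

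Long-lived stem cells of the marrow are recognised by a small set of surface proteins and kept by a small set of nuclear factors. Mecom, also called Evi1, encodes a zinc finger protein needed by these cells, and its overexpression marks a group of myeloid leukaemias. Hlf, Mllt3 and Sox4 encode other nuclear regulators of stem or progenitor cells. Ly6a (Sca-1), Procr (the endothelial protein C receptor) and Cd34 encode surface proteins used to sort early mouse progenitors, and Cd48 encodes a surface protein that the most primitive stem cells lack and their progeny carry. Angpt1 and Egfl7 encode secreted proteins known from blood vessels and from progenitors.

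Depth was close in both libraries, at 17606168 counts in WT against 20462011 in 2KR. Levels are given as CPM, counts scaled to a common library size with TMM (a correction for library composition). Intervals are exact 95% intervals that cover counting error only, and with 1 library per form there is no replicate check and no p-value. Beyond the 10 genes, the progenitor identity of the cells was checked on other markers. Kit, the SCF receptor, had 1359 CPM in WT against 1158 in 2KR, and the stem cell gene Fgd5 had 64.9 and 70.1. Hoxa9, a homeobox gene of stem cells, had 0 counts in both libraries, while the mast cell protease gene Cpa3 was among the high transcripts at 5468 and 2525 CPM. In bulk RNA, fewer cells of a type and less RNA per cell cannot be told apart.

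Mecom, Angpt1 and Egfl7, or 3 of the 10 genes, were higher in 2KR by 2-fold or more, and 0 were lower by as much. The rule was a log2 ratio of at least 1 in size, computed on CPM + 1, among models whose mean level reached 1 CPM, and 10 of the 10 passed that filter. Over all 12466 models tested, 2.66% were at least 2-fold higher, 4.56% were at least 2-fold lower and 7.22% differed either way. The remaining 7 genes lay inside the 2-fold lines, with Mllt3 at -0.97 and Cd34 at 0.90 on the log2 scale nearest to them. A smaller step of 1.5-fold, tried after the values were seen, took in Cd34 and Sox4 on the higher side and Ly6a and Mllt3 on the lower side, where 6.92% of all tested models were higher, 9.67% lower and 16.6% either. Procr, Hlf and Cd48 differed by less. The median log2 ratio of the 10 was 0.44, and that of all tested models was 0.02. The early progenitor genes thus did not share 1 direction: 8 had a ratio above 1 and 2 below it. Of all tested models 52.3% had a ratio above 1. Counting intervals lay wholly above 1 for 6 of the 10 and wholly below it for 2. The matching share over all models was not counted. Such intervals narrow with depth, so abundant genes can lie outside 1 on small differences.

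**Figure D1:**
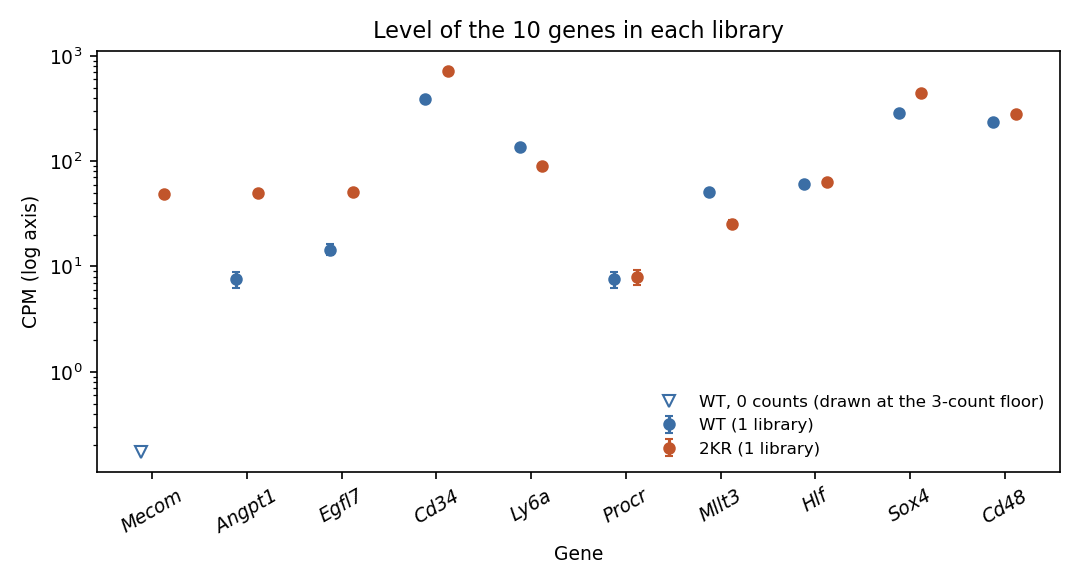
Level of each of the 10 genes in the WT library (blue) and the 2KR library (orange) as CPM on a log axis, with exact 95% counting intervals that are often smaller than the point. Mecom has 0 counts in WT (open triangle at the floor of 3 counts), and Angpt1 and Egfl7 are the other genes with a wide gap between libraries.

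**Figure D2:**
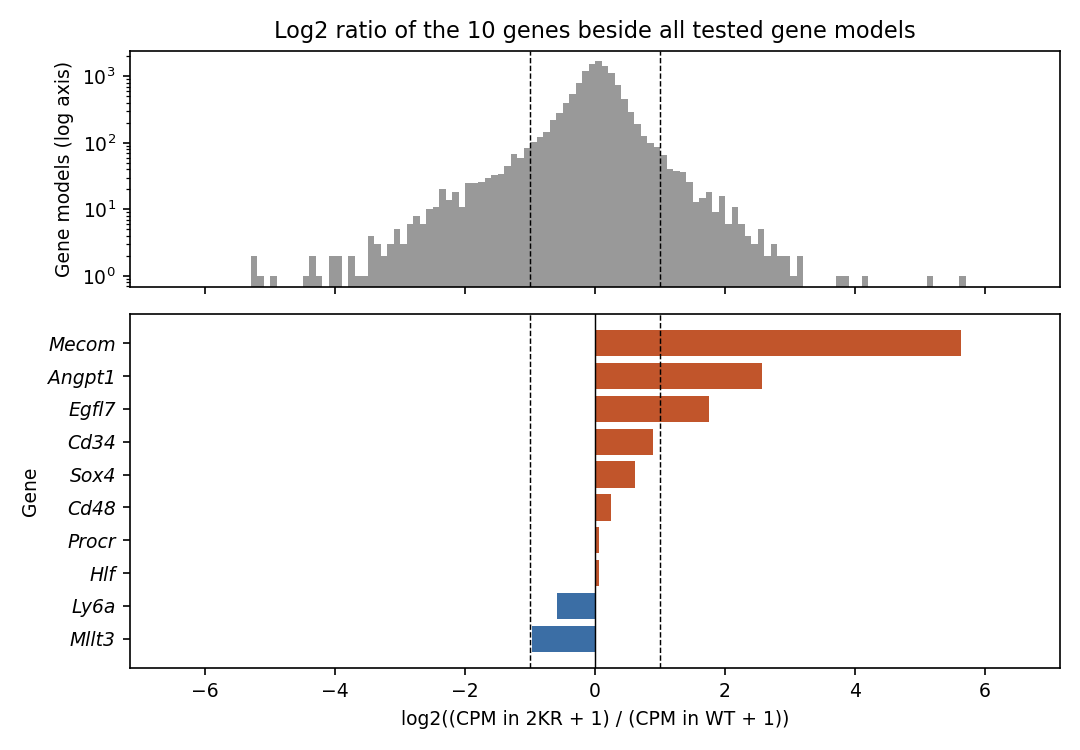
Lower panel, log2 ratio of CPM + 1 in 2KR over WT for each of the 10 genes, orange above 0 and blue below. The upper panel shows the same quantity for all 12466 tested gene models, with the number of models on a log axis and dashed lines at the 2-fold rule.

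Mecom (ENSMUSG00000027684, chromosome 3, 29951296 to 30548008 in GRCm38, minus strand) was read in 2KR only. It had 0 counts in WT, where the floor of 3 counts per library corresponds to 0.172 CPM, and 997 counts in 2KR, or 48.4 CPM. Against a WT level at that floor the 2KR level was at least 282-fold higher, and the lower limit of the exact interval for the ratio was 229-fold. Its deposited FPKM (fragments scaled by length and library size) of 2.18 in 2KR lay at percentile 43.0 of the models with counts in that library. On the FPKM scale, a gene not detected in one library was thus of middling level in the other. That place depends on the length behind the FPKM, 22.3 kb, where the longest coding transcript has 5.69 kb.

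The locus spans 597 kb and holds 11 annotated coding transcripts in GENCODE M21. The counts are per gene, so transcripts from the upstream start, which yield the long MDS1-EVI1 form, and from the downstream start, which yield the EVI1 form, cannot be told apart. RefSeq gives both starts on GRCm38.p6, and bases before them are shown because the 997 counts may come from either. The first line is chr3:30509823-30510009, minus strand, which lies 250 to 64 bases before the upstream start and outside annotated exons. The second is a short stretch, chr3:30013300-30013325, minus strand, before the downstream start at 30013204 and wholly within annotated exons. Capitals mark a reverse-strand match to AGGTCA, the half-site that retinoid receptors read.
Mecom upstream start: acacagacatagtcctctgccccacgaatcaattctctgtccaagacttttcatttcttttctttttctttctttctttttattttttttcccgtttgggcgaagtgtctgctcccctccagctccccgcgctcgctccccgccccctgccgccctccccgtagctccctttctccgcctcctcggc
Mecom downstream start: gacctttttgTGACCTctcccgccag
No searched motif was found in the promoter window of the upstream start, whose GC content was 52.0%. A motif of this kind is common, so these matches describe the sequence and say nothing of binding.

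Tested neighbours of Mecom lay inside the 2-fold lines. Mecomos, the antisense RNA over 42430 bases of the locus, had 0 counts in WT against 1 in 2KR, and 6 other models inside the locus had 0 in both. Of 32 models within 1 Mb, 5 were tested and 0 differed 2-fold, where the background was 7.22%. The nearest of these, Mynn, another zinc finger gene 54.1 kb away, had 430 and 449 counts, a ratio of 0.89 (0.77 to 1.01). Skil, which encodes a SMAD corepressor, had 95 and 134 counts, and Prkci, an atypical protein kinase C gene, had 372 and 556, a ratio of 1.27 (1.11 to 1.45).

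Few models were nearly absent from a single library. Over the whole table, 5 models had at most 3 counts in WT and at least 100 in 2KR, and 6 had the reverse. Leaving out models with placeholder names, those like Mecom were RP23-325D10.3, with 0 and 692 counts, a model that overlaps Hsd3b7 and whose reads are uncertain, and the potassium channel gene Kcnq5, with 2 and 181. The reverse pattern was found for Tgfb2 (604 and 3 counts), Adgrd1 (252 and 0), Ctnna2 (202 and 1), Dock1 (172 and 2), Slc15a2 (172 and 0) and Trpm6 (117 and 2). Likeness here means only these count limits over 2 libraries.

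Tested relatives of Mecom in the PRDM family, which share its PR domain, were inside the 2-fold lines. Besides Mecom, 7 of 14 family members were tested, 0 differed 2-fold, 1 had a ratio above 1 and 6 below it. Prdm16, the closest relative of Mecom, had 1 count in WT and 0 in 2KR. Prdm11 showed the widest gap of the 7, with 61.1 CPM in WT against 38.1 in 2KR. Prdm2, with the highest mean CPM, had 111 and 101. Genes for proteins known to bind the Mecom protein, corepressors and the signalling factor Smad3, were present in both libraries. Of these, 8 of 8 were tested and 0 differed 2-fold, beside 7.22% of all models. Ctbp1 had 120.2 CPM in WT against 120.5 in 2KR, and Ctbp2 had 30.9 and 22.2. Smad3, a TGF-beta signalling factor whose activity Mecom represses, had 45.7 and 70.8.

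Genes reported elsewhere as regulated by the Mecom protein were mixed. Of 12 on this list 10 were tested, with 2 at least 2-fold higher, Angpt1 and Adgrg1, and 1 at least 2-fold lower, Meis1, where the shares of all models were 2.66% and 4.56%. With a 3-fold rule 1 of these 3 was left. Adgrg1 (GPR56), an adhesion receptor of stem cells, had 289 CPM in WT against 629 in 2KR, a ratio of 2.18 (2.11 to 2.25). Meis1, a homeobox partner of HOX proteins, had 94.8 and 35.5 CPM. Gata2, a master factor of stem cells and mast cells, was 1.53-fold lower (1.48 to 1.57), from 683 to 447 CPM. The median log2 ratio without Angpt1 was 0.33 over 9 genes, beside 0.02 for all models.

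Angpt1 (ENSMUSG00000022309, chromosome 15, 42424727 to 42676977, minus strand) encodes angiopoietin 1, the ligand that activates the Tek receptor. It had 132 counts in WT against 1027 in 2KR, or 7.55 and 49.8 CPM, 6.60-fold higher (5.50 to 7.97). Its FPKM lay at percentile 39.9 of detected models in WT and 75.9 in 2KR. The receptor gene Tek had 33 and 54 counts, with a counting interval of 0.88 to 2.21 for the ratio, so the depth does not separate the libraries for it. Tie1, the orphan partner of Tek, had 50.6 and 89.4 CPM, a ratio of 1.77 (1.63 to 1.92). Besides Angpt1, 5 of 10 angiopoietin and Tie genes were tested and 0 differed 2-fold, beside 7.22% of all models. Angpt2, which encodes the antagonist of Angpt1, had 1 and 0 counts. The ligand gene thus stood well apart from the receptor genes in ratio, though its level in 2KR was below that of Tie1 in CPM, which does not allow for length.

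The 3 tested models within 1 Mb of Angpt1 were Oxr1, Eif3e and Emc2, and their log2 ratios lay between -0.17 and 0.11. The overlapping antisense model Gm17473 had 0 counts in both libraries. By level in both libraries, the coding genes nearest to Angpt1 were Wscd1, with 161 and 1076 counts, Amot, with 149 and 831, and Hebp1, with 172 and 1058.

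Egfl7 (ENSMUSG00000026921, chromosome 2, 26580014 to 26593120, plus strand) encodes a secreted protein of endothelium and progenitors that is known to act on Notch receptors, and hosts the microRNA miR-126, which was not analysed here. The gene had 253 and 1052 counts, 14.5 CPM in WT against 51.1 in 2KR, 3.53-fold higher (3.07 to 4.06). RefSeq lists 3 starts on GRCm38.p6. The bases before the second of them, at 26583865, are shown because that window held a match to the retinoid half-site, in capitals (chr2:26583615-26583863, plus strand).
Egfl7 second start: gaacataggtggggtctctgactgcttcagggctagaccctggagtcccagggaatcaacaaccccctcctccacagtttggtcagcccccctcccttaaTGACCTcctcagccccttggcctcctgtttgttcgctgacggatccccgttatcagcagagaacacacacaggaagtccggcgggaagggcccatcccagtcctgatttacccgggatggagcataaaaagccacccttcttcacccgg
The reads cannot be assigned to any of the 3 starts.

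A neighbour that overlaps Egfl7 was also higher. Agpat2, an enzyme gene of phospholipid synthesis on the opposite strand, overlaps the end of Egfl7 by 64 bases and had 184 and 484 counts, a ratio of 2.23 (1.88 to 2.66). The sources used here do not say whether counting used strand, and the part of shared reads was not tested. Of 40 tested models within 1 Mb of Egfl7, Agpat2 was the only one at least 2-fold higher and 3 were at least 2-fold lower (Nacc2, Kcnt1 and Gm996). The read-through model Gm20532 had 5 and 1 counts. Coding genes nearest to Egfl7 in both libraries' levels were Rnf185, Rab12 and Esam, the last a junction protein that is itself a stem cell marker.

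Genes of the Notch pathway mostly lay inside the 2-fold lines. Besides Egfl7, 11 of 13 were tested, with 0 past the 2-fold line on the higher side and 1 on the lower. Over all models the shares were 2.66% and 4.56%. Of the 11 ratios 10 were below 1, 5 of them with an interval wholly below it, where 52.3% of all tested models were above 1. The ligand gene Jag1 was 4.06-fold lower (2.37 to 7.29) on 62 and 18 counts. The Notch target Hes1 had 66 and 40 counts, and the feedback gene Nrarp, the single ratio above 1, had 14.2 CPM in WT against 28.1 in 2KR. Notch1 was close, at 48.0 and 44.4 CPM.

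Among surface proteins, Cd34 (ENSMUSG00000016494, chromosome 1, 194938819 to 194961279, plus strand) had the largest difference in CPM of the 10 genes. It had 6782 counts in WT against 14906 in 2KR, which is 388 and 723 CPM, a difference of 335 CPM. The ratio of 1.86 (1.81 to 1.92) lay at percentile 96.6 of all tested ratios but under the 2-fold rule. The antisense model Gm16897 over its end had 13 and 2 counts. The bases before its start (chr1:194938571-194938818, plus strand) are shown as those of the abundant member whose level differed most. None of the searched motifs was found there, hence no capitals.
Cd34 start: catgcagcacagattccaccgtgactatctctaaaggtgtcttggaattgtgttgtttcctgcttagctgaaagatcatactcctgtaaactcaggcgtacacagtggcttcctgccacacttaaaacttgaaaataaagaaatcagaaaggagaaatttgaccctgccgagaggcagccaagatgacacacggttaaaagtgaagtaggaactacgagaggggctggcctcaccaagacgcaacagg
Of 5 other sialomucin and selectin genes tested, 0 differed 2-fold, beside 7.22% of all models. Podxl (podocalyxin), from the same family of mucins, went the other way, from 234 to 122 CPM, 1.91-fold lower (1.82 to 2.01). Emcn (endomucin) had 0 counts in both libraries. The 4 tested neighbours of Cd34 within 1 Mb had ratios below 1, with Plxna2 lowest on 130 and 77 counts.

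Ly6a (ENSMUSG00000075602, chromosome 15, 74994877 to 74998031, minus strand), the gene of the antigen Sca-1, was lower in 2KR. It had 2359 and 1837 counts, 135 CPM in WT against 89.2 in 2KR, 1.51-fold lower (1.42 to 1.61). Cd34 and Ly6a, both used to mark early progenitors, thus differed in opposite directions between the same 2 libraries. Of the Ly6 family besides Ly6a, 3 of 14 genes were tested. Ly6e, in the same cluster, was 1.60-fold lower (1.57 to 1.63), from 1310 to 818 CPM. Ly6c1 was 2.99-fold lower (2.15 to 4.21) on 132 and 52 counts, whereas Ly6c2 was 7.35-fold higher (4.30 to 13.5) on 15 and 130 counts. These 2 genes are near-identical copies whose reads can be split or lost in counting, so their separate ratios are uncertain.

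Procr (ENSMUSG00000027611, chromosome 2, 155751117 to 155755471, plus strand) was low and level. It had 132 and 163 counts, 7.55 and 7.91 CPM, a ratio of 1.05 (0.83 to 1.33), so a difference within that interval was not detectable at this depth. Other genes of the protein C pathway gave 5 tested of 7, with 0 past 2-fold, beside 7.22% of all models. F2r, the thrombin receptor through which Procr acts, was far more abundant in CPM, at 2528 and 2685. Thbd (thrombomodulin) had 34 and 34 counts, and F2rl1 had 61 and 28.

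Cd48 (ENSMUSG00000015355, chromosome 1, 171682009 to 171705258, plus strand) had 4085 and 5737 counts, 234 and 278 CPM, a ratio of 1.19 (1.145 to 1.24). Cd244, which encodes its receptor 2B4, lies 72.3 kb away. It had 83.6 CPM in WT against 172 in 2KR, a ratio of 2.05 (1.93 to 2.18). Cd244 was the only 2-fold difference among the 42 tested models within 1 Mb of Cd48 and among the 5 other SLAM family genes tested. Of all models 7.22% differed by as much. Slamf1 (CD150), the marker that Cd48 is paired with in sorting stem cells, had 65.7 and 58.6 CPM. Ly9 was lower in 2KR, at 117 and 79.3 CPM. Ly9 lies within the span of Cd244 on the opposite strand, and the part of shared reads in their ratios was not tested.

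Of the other nuclear factors, Mllt3 (ENSMUSG00000028496, chromosome 4, 87769925 to 88033364, minus strand) had the lowest ratio of the 10 genes. Its product, AF9, reads acylated histones and recruits the DOT1L and super elongation complexes. It had 882 and 520 counts, 50.4 CPM in WT against 25.2 in 2KR, 2.00-fold lower (1.79 to 2.23). To more digits the fold was 1.999, just inside the 2-fold line, and adding 1 CPM to both put the log2 ratio at -0.97. Its partners differed less: of 15 tested, 0 differed 2-fold (7.22% of all models did), and their log2 ratios ran from -0.45 (Ell) to 0.20 (Psip1). Mllt1 (ENL), its close relative, had 126 and 112 CPM, and Dot1l had 141 and 131.

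Hlf (ENSMUSG00000003949, chromosome 11, 90336536 to 90390895, minus strand), a bZIP factor of quiescent stem cells, had 1060 and 1302 counts. Its level was 60.6 CPM in WT against 63.2 in 2KR, a ratio of 1.04 (0.96 to 1.13). Its relatives Dbp and Tef, which follow the circadian clock, were lower in 2KR, with 19.8 and 15.0 CPM for Dbp and 134 and 107 for Tef. Of 15 PAR bZIP and clock genes besides Hlf, 0 differed 2-fold (7.22% of all models did). Ratios were below 1 for 10 of them, where 52.3% of all tested models were above it. The period gene Per2 came nearest, with 41.4 and 21.2 CPM. Per1, also a gene induced by stimulation, had 320 and 192.

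Sox4 (ENSMUSG00000076431, chromosome 13, 28948919 to 28953713, minus strand) encodes a SOX factor of progenitors and leukaemia cells in a single exon. It had 5021 and 9106 counts, 287 CPM in WT against 442 in 2KR, a ratio of 1.54 (1.49 to 1.59). The lncRNA model Gm26735 on the opposite strand shares 2753 bases with it and had 12 and 18 counts, few beside those of Sox4. Its group C relatives differed little, with Sox11 at 47.0 and 51.4 CPM and Sox12 at 78.6 and 80.7. Of 7 other SOX genes tested 1 differed 2-fold, beside 7.22% of all models: Sox5 was 5.52-fold lower (4.32 to 7.13), from 21.2 to 3.83 CPM. Sox17, a factor of fetal stem cells and endothelium, had 18.0 and 28.8 CPM.

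**Figure D3:**
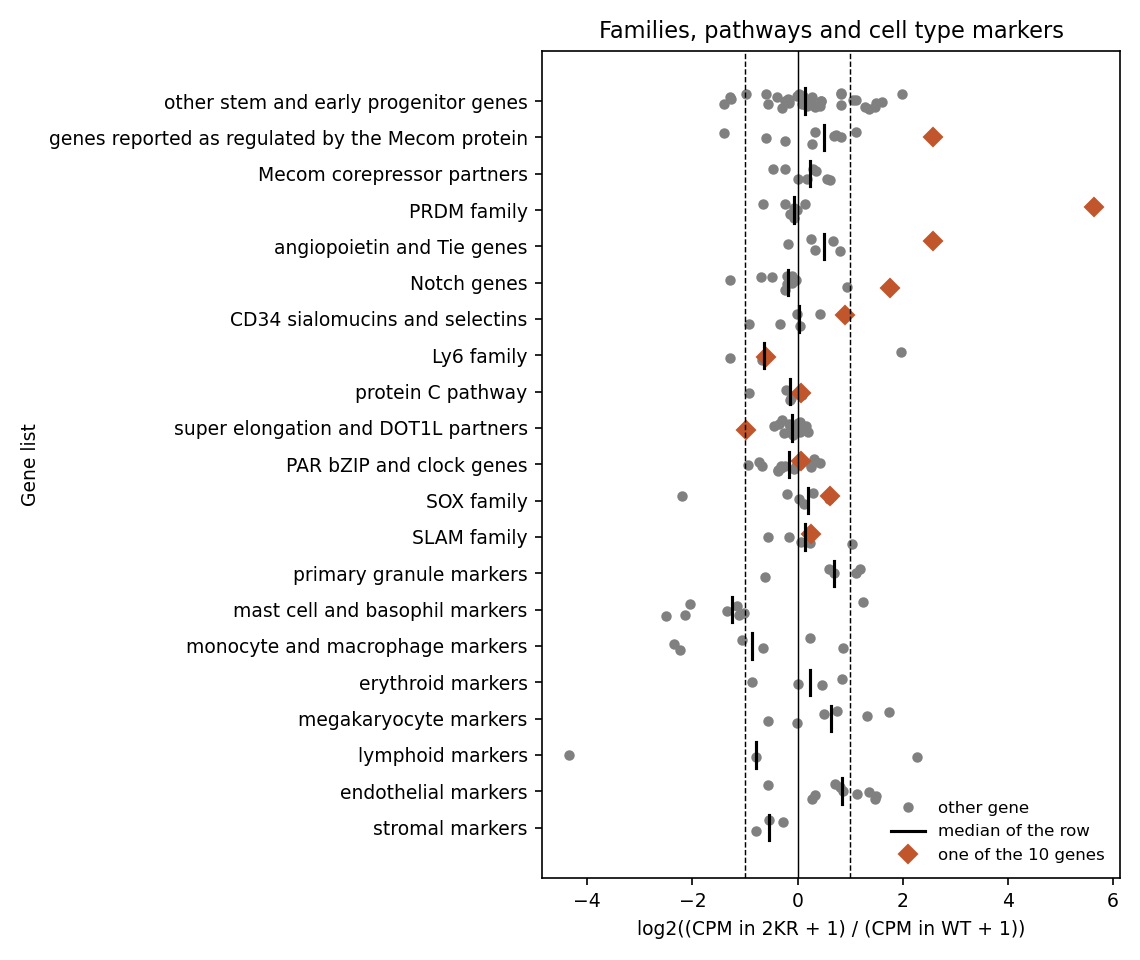
Log2 ratio of CPM + 1 in 2KR over WT for the tested genes of each list, 1 point per gene, orange diamonds for the 10 genes and grey for others, with the median of each row as a black bar and dashed lines at 2-fold. Mecom, Angpt1 and Egfl7 lie to the right of the other genes of their families, and the Mllt3 and Ly6a diamonds lie to the left of 0.

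Levels between genes can be compared only per length, and the length matters here. The deposited FPKM follows the count divided by 1 fixed length per gene and the library total. That length was 22.3 kb for Mecom, 7.70 kb for Egfl7 and 9.83 kb for Cd34. The longest coding transcript of each in GENCODE M21 is 5.69, 1.39 and 2.55 kb. For Ly6a the length used, 3.45 kb, was longer than the span of the gene, 3.16 kb, as was the case by over 1% for 846 of 13287 models with at least 10 counts in 2KR. For Sox4 and Angpt1 it matched the longest transcript within 1%. The sources used here do not say how the length was defined. It cancels in the ratio between libraries but sets the order of the genes.

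By deposited FPKM the order in WT was Cd48 (129), Sox4 (59.5), Cd34 (39.2), Ly6a (38.8), Hlf (5.19), Mllt3 (3.27), Procr (1.99), Egfl7 (1.87), Angpt1 (1.76) and Mecom (0). Counting intervals overlapped between Cd34 and Ly6a, and among Procr, Egfl7 and Angpt1. In 2KR it was Cd48 (155), Sox4 (92.8), Cd34 (74.1), Ly6a (26.0), Angpt1 (11.8), Egfl7 (6.67), Hlf (5.49), Mecom (2.18), Procr (2.11) and Mllt3 (1.66). There Mecom and Procr had overlapping intervals, and so did Procr and Mllt3.

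When CPM was divided by the longest coding transcript instead, a choice made after the lengths were seen, Cd34 led in 2KR with 283 CPM per kb, ahead of Cd48 with 235. In WT Cd48 (197) came before Cd34 (152). On this scale Ly6a was close to Sox4 in 2KR, at 93.4 and 92.2, and Mecom had 8.50, between Hlf (11.2) and Procr (4.95). Egfl7 had 10.4 in WT and 36.7 in 2KR, above Angpt1 in both libraries.

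**Figure D4:**
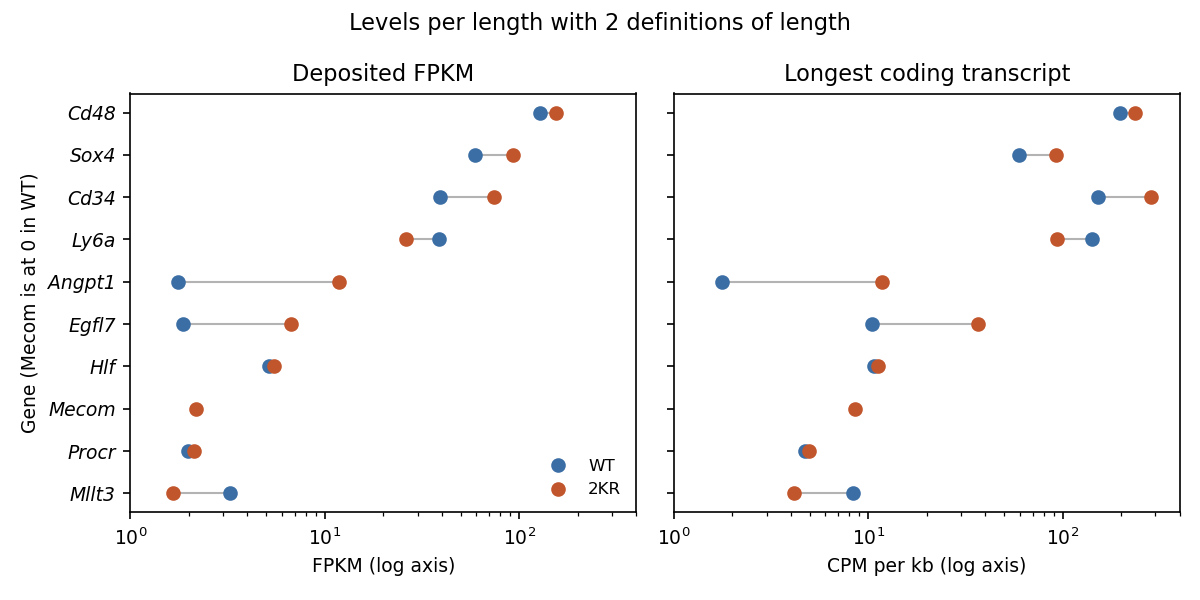
Levels of the 10 genes per length in WT (blue) and 2KR (orange) on log axes, as deposited FPKM (left) and as CPM per kilobase of the longest coding transcript (right), in the order of FPKM in 2KR. A line joins the libraries of a gene, nearly equal in length in both panels, and values in the right panel are larger for every gene with a shorter transcript than the FPKM length, most of all Egfl7.

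The wider set of stem and early progenitor genes was also mixed. Of 48 other genes on that list 38 were tested. Past the 2-fold lines were 8 on the higher side in 2KR and 3 on the lower, where 7.22% of all models differed. Their median log2 ratio was 0.14, with 25 ratios above 1 and 13 below, where 52.3% of all tested models were above. On the higher side were Cdkn1c, the cell cycle inhibitor p57 of quiescent stem cells, 4.89-fold (3.65 to 6.65) on 54 and 311 counts, and Lmo2, a bridging factor of stem cell transcription complexes, 3.33-fold (2.72 to 4.09). Esam and Mycn, a MYC family gene of stem cells, were also higher, at 2.91-fold (2.56 to 3.31) and 2.77-fold (2.65 to 2.91). The others on this side were Eng, Gimap6, Adgrg1 and Thy1.

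The 3 on the lower side were Meis1, 2.67-fold (2.45 to 2.92), Cd27, a receptor of the TNF family, 2.68-fold (2.16 to 3.34), and Tgm2, a transglutaminase gene, 2.69-fold (2.12 to 3.42). The 2 genes of the list with the highest mean CPM, which does not allow for length, lay inside the 2-fold lines. Ifitm1 had 1010 CPM in WT against 1383 in 2KR, a ratio of 1.37 (1.34 to 1.39), and Kit was 1.17-fold lower (1.15 to 1.19). Transcription factor genes of the list ranged from Lmo2 and Mycn on the higher side to Meis1 on the lower, with Erg at 155 and 165 CPM and Runx1 at 335 and 379 between them.

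Several of the 10 genes are also read in blood vessels, so endothelial markers were counted. Of 14, 10 were tested, and 4 passed the 2-fold line on the higher side in 2KR and 0 on the lower. Over all models 2.66% were higher by as much and 4.56% lower. Ratios were above 1 for 9 of the 10, beside 52.3% of all tested models. The 4 became 1 with a pseudocount of 5 or a mean of at least 5 CPM, 2 on FPKM and 0 with a 3-fold rule. Their median log2 ratio was 0.84. The 4 were Esam, Eng, Plvap (9 and 66 counts) and Ecscr (6 and 40 counts), and Cdh5, the cadherin of endothelial junctions, had 81 and 191 counts. Of the same 14 markers Cldn5, Emcn, Robo4 and Flt4 had 0 counts in both libraries. The summed level was 637 CPM in WT against 846 in 2KR, of which Pecam1, read widely in blood cells, gave 550 and 669. The list shares 5 genes with the stem cell list and Tek and Tie1 with the angiopoietin list. The part of these genes in the differences of Mecom, Angpt1 and Egfl7 was not tested.

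Markers of platelets and their precursors were mixed. Of 9, 6 were tested, and 2 were at least 2-fold higher and 0 lower (2.66% and 4.56% of all models). Among them 4 ratios were above 1 and 2 below, where 52.3% of all tested models were above. The summed level was 1041 CPM in WT against 1360 in 2KR. Pf4 had 121 and 406 CPM, 3.35-fold higher (3.19 to 3.52), and Ppbp had 9.55 and 25.2. Itga2b had 867 and 858 CPM, and Vwf, a gene of platelet-biased stem cells, was lower in 2KR on 42 and 27 counts, a ratio of 0.55 (0.32 to 0.91), while Gp6 and Treml1 had 0 counts in both libraries. Mast cell and basophil markers were mostly lower in 2KR: of 11, 8 were tested, and 7 passed the 2-fold line on the lower side and Mcpt8, a basophil protease gene, on the higher, beside 4.56% and 2.66% of all models. These 8 became 5 with a pseudocount of 5, on FPKM or with a mean of at least 5 CPM, and 3 with a 3-fold rule. Their summed level was 6647 CPM in WT against 3446 in 2KR, and Fcer1a and Tpsab1 had 0 counts in both. The part of these shifts in the ratios of the 10 genes was not tested.

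Over all 10 loci, 164 neighbours within 1 Mb were tested, with 3 past 2-fold on the higher side in 2KR and 7 on the lower, which is 6.10% beside 7.22% for all models. The neighbours of Mecom, Angpt1, Cd34, Mllt3, Hlf and Sox4 held 0 differences of 2-fold. The 3 higher were Agpat2 beside Egfl7, Ly6c2 beside Ly6a and Cd244 beside Cd48.

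**Figure D5:**
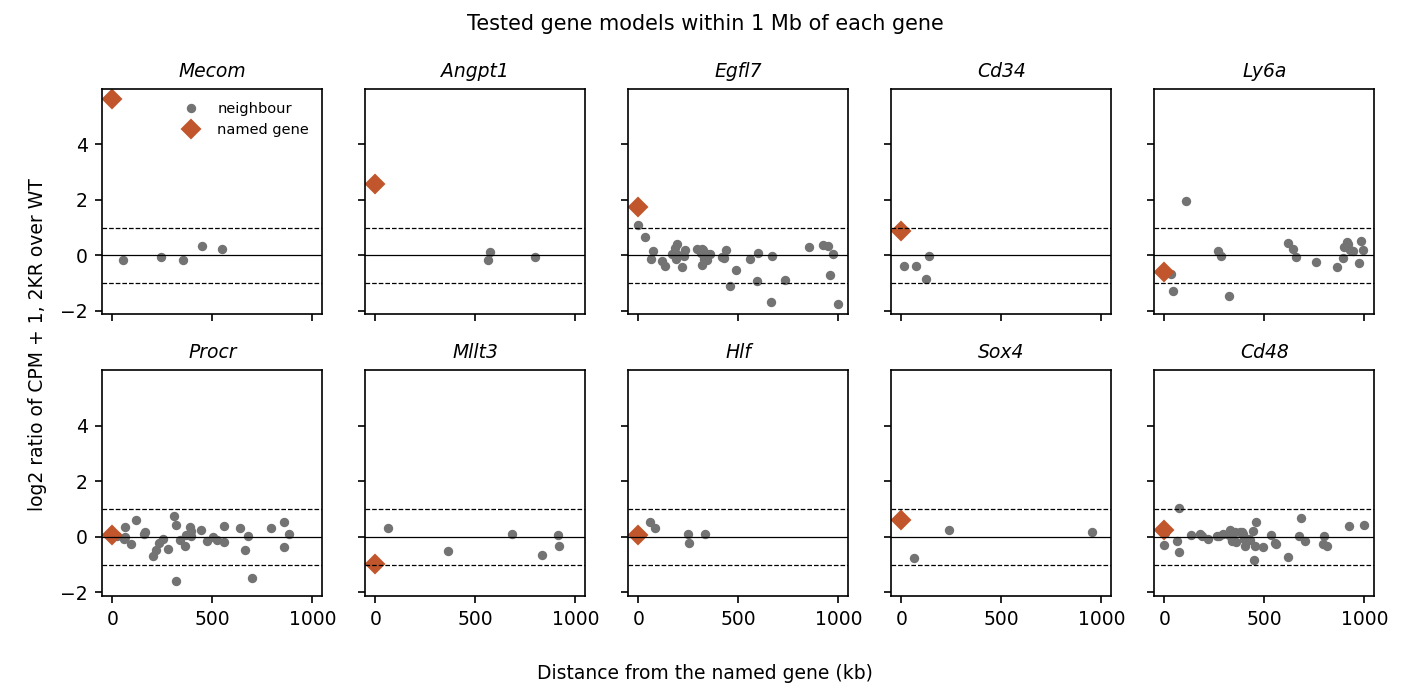
Log2 ratio of CPM + 1 in 2KR over WT of tested gene models within 1 Mb of each of the 10 genes (grey), against their distance from it in kb, with the named gene at 0 (orange) and dashed lines at 2-fold. Mecom, Angpt1, Egfl7, Cd34 and Sox4 each stand above all of their tested neighbours, and Mllt3 lies below all of its own.

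RefSeq promoter windows, from 250 bases before to 50 after a start, matched 8 of the 10 genes with 12 windows. Angpt1 and Ly6a had no window, so their promoters were not searched. Motifs were searched on both strands, and none of them contains another. The retinoid receptor half-site AGGTCA was found in 4 of the 12 windows and in 16.3% of all 32851 windows. The 4 belonged to Mecom (downstream start), Egfl7 (second start), Procr and Sox4. Any relation of the match to the differences between the libraries was not tested.

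Other motifs were present in few of these windows. The E-box CAGGTG, bound by basic helix-loop-helix factors, was in 2 of the 12, those of Egfl7 (the third start) and Hlf, and in 20.2% of all windows. The RUNX motif TGTGGT, which factors such as Runx1 read, was in 1, that of Cd48, and in 16.8% of all. That Cd48 window also held the ETS motif CCGGAAG, known from promoters of many blood genes, and 8.86% of all windows did. The GATA motif AGATAA, read by Gata2 and its relatives, was in 0 of the 12 and in 11.2% of all windows. The TATA box, searched as TATAAA, was in 0 and in 13.6% of all. The motif GAAGATGAG, reported for a zinc finger cluster of the Mecom protein, was in 0 and in 0.40% of all.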

How the data were processed

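RNA-seq libraries of 2 forms of PML/RARa were analysed, 1 library each, grouped by the infection in the labels. The submitters' processing notes name HISAT2 2.0.4 and the build GRCm38, per the labels; the sources used here do not state the counting program, its annotation, strandedness or duplicate removal. The authors deposited a raw count and an FPKM value for each of 34745 gene models, per the file headers. The FPKM equalled count over a fixed length and library total within 0.1% for 15403 of 15403 models read in both. Strand, gene type and transcript lengths came from GENCODE M21 (34267 identifiers matched), and promoter sequences from RefSeq on GRCm38.p6.

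Counts were scaled by TMM in edgeR 4.0.16 (R 4.3.3), the factors being 0.993 (WT) and 1.01 (2KR). Intervals came from scipy 1.17.1 and figures from matplotlib 3.10.9, under Python 3.11.15. Ratios are log2 of CPM + 1, 2KR over WT, for models whose mean level reached 1 CPM; a size of at least 1 counted as a difference. Folds are CPM ratios without the pseudocount, with exact 95% Clopper-Pearson intervals given both totals. The floor was 3 counts per library. No test across samples was possible. PCR reads are not independent molecules, so intervals and floors cover counting error only.

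The genes and lists were chosen with earlier results of these data known. Named were the 10 genes and, from each list, up to 4 tested genes with the largest ratio and the 2 with the highest mean, with markers at or near 0, overlapping models, genes with at most 3 counts in a library and at least 100 in the other, and the 3 nearest in level. Genes named outside this rule, chosen after their values were seen, were Cd27, Cdh5, Dbp, Dot1l, Eif3e, Emc2, Erg, Fgd5, Gimap6, Gm996, Kcnt1, Mcpt8, Mllt1, Mynn, Nacc2, Notch1, Oxr1, Plxna2, Prkci, Psip1, Runx1, Skil, Tgm2 and Thy1. Simulated 2KR and WT counts for 12466 genes, with counting (Poisson) error only, tested the procedure. Among 12266 genes without a difference 0 were called. Among 50 per size 18 were recovered at 2-fold (the threshold itself), 48 at 3-fold, 48 at 4-fold, 50 at 8-fold. Variation between animals, infections or library preparations was not simulated. The 0 is therefore no rate of false calls for the real libraries. Alternatives were pseudocounts of 0.1 and 5, total-count and median-of-ratios scaling, deposited FPKM, no filter, a minimum mean of 5 CPM, and a 3-fold rule.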

Additional observations from a re-analysis of the deposited data

How the results depend on the processing

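Under every other pseudocount, scaling, unit, filter and the 3-fold rule 3 of the 10 genes, Mecom, Angpt1 and Egfl7, stayed past the line on the higher side in 2KR and 0 passed on the lower. With a 1.5-fold rule, chosen after seeing the data, 5 were higher and 2 lower. Of 50 recomputed log2 ratios of the 10 genes, 0 changed sign and 8 left their counting interval. Mecom went from 5.63 to 8.92 with a pseudocount of 0.1, 3.42 with 5 and 1.67 on FPKM, as its WT level is 0. The other stem and early progenitor genes gave 8 higher and 3 lower. Higher, 2 passed a 3-fold rule; lower, 1 with a pseudocount of 5, 1 on FPKM, 0 with a 3-fold rule and 5 with a 1.5-fold rule. All tested models gave 331 higher and 569 lower, against 147 and 297 with a pseudocount of 5, 166 and 282 on FPKM, 207 and 377 with a mean of at least 5 CPM, 112 and 253 at 3-fold, and 863 and 1205 at 1.5-fold. Family and marker genes, the remaining lists pooled without the 10 genes, gave 13 higher and 15 lower. These became 7 higher with a pseudocount of 5, 8 lower on FPKM, and 3 higher and 7 lower at 3-fold. The number tested in this pool was not counted, so its share cannot be set beside that of all models. A larger pseudocount or fold counts fewer genes by construction. Single lists moved by over 1.5 times in 28 of 160 recomputed counts. Total-count and median-of-ratios scaling moved the median log2 ratio by 0.02 and -0.01. Depth limits Procr and Tek, and Mecom in WT. No replicate could be left out, and no paired analysis was possible because each form had 1 library.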

Other observations

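Lists of lineages not described above were mixed or thinly read. Beside their counts, 2.66% of all tested models were at least 2-fold higher, 4.56% lower and 7.22% either. Of 12 primary granule markers 5 were tested, with 2 at least 2-fold higher in 2KR (Ctsg and Mpo) and 0 lower, and Elane, neutrophil elastase, had 5 and 10 counts. Of 8 monocyte and macrophage markers 6 were tested, with 0 higher and 3 lower (Klf4, Cx3cr1 and Ccr2), and Csf1r had 10 and 12 counts. Erythroid markers gave 4 tested of 9 with 0 past 2-fold, and Slc4a1 had 0 counts in both libraries. Stromal markers gave 3 tested of 9 with 0 past 2-fold. Pdgfrb, a receptor of pericytes, was abundant at 543 CPM in WT and 451 in 2KR, while Lum and Lepr had at most 2 counts in either library.

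Markers of early lymphoid cells split in opposite directions. Of 9, 3 were tested. Dntt, the terminal transferase of lymphoid-primed progenitors, had 544 counts in WT against 3173 in 2KR and was 4.95-fold higher (4.52 to 5.43), whereas Il7r had 548 and 12. Rag1, Pax5, Ebf1 and Cd3e had 0 counts in both libraries, and Cd79a had 0 in WT and 5 in 2KR.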
